A study of Mus musculus with 8 samples.

Results

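The 9 genes described here are the core of the oxygen response in pancreatic islets: the factor subunits Hif1a, Epas1 and Arnt, the oxygen-sensing hydroxylases Egln1 and Egln3, and the hypoxia-induced genes Vegfa, Higd1a, Bnip3 and Ankrd37. They were taken by name from the 20715 genes listed for each library. All 9 had values, and 8 of them reached the level needed for testing, 1 FPKM or more in at least 4 libraries. FPKM are fragments per kilobase of transcript per 1e6 mapped fragments, a level per length that allows genes to be compared with each other. Islets were hand-picked from 12-week-old C57BL/6 mice after collagenase digestion and a density gradient, and RNA was sequenced in 4 libraries from ob/+ mice, which carry 1 mutant copy of the leptin gene Lep, and 4 from ob/ob mice, which carry 2. Leptin is a hormone of fat tissue that limits appetite. The ob/ob mouse makes no working leptin in any tissue and becomes obese and insulin resistant, so a difference between the groups is that of the whole animal and not of the islet alone. Whether each library is from a separate mouse is not stated in the labels, and p-values therefore measure only how far these libraries vary, some of which may be technical.

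Hypoxia-inducible factors are pairs of an alpha subunit (HIF-1 alpha from Hif1a, HIF-2 alpha from Epas1) and the shared beta subunit from Arnt. In the presence of oxygen the prolyl hydroxylases Egln1 and Egln3 mark the alpha subunit, the VHL ubiquitin ligase binds the mark and the protein is destroyed, so that HIF activity is known to be set largely by protein stability and is not read from the transcripts of the subunits. When oxygen is low the pair binds short DNA sites with the core letters ACGTG or GCGTG and raises genes of blood vessel growth, glucose use and mitophagy, with Egln1 and Egln3 among its own targets. In islets, VEGF-A from beta cells is known to keep the dense bed of fenestrated capillaries.

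The libraries were those of islets by their markers. All 10 beta cell markers had values, and together they took 45.1% to 58.3% of summed FPKM in ob/+ and 61.9% to 70.7% in ob/ob. Most of this was insulin, as Ins1 and Ins2 alone took 42.0% to 54.3% and 57.1% to 65.6%. By the test given below, Ins2 and Iapp were called higher in ob/ob, while 4 markers (Mafa, Slc2a2, Ucn3 and Slc30a8) were called lower. Alpha cell markers took 3.34% ± 0.382 and 1.10% ± 0.142, and delta and PP cell markers 1.82% ± 0.266 and 0.515% ± 0.115 (SD, n = 4 each, ob/+ first). Markers of acinar cells, the exocrine cells that secrete digestive enzymes, gave 7.68% to 26.1% of summed FPKM in ob/+ and 3.40% to 11.9% in ob/ob. The library ob/+ 4 was the highest of all 8 at 26.1%, and many members were low in it. Since values are relative to the library total, results are given with and without this library where it decides them. Fewer cells of a type and less RNA per cell cannot be told apart in these bulk samples. Absolute depth is unknown, as the files hold no counts.

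Of the 8 tested members 2 passed the test, both lower in ob/ob: Hif1a and Higd1a. No member passed as higher. Across all 11747 tested genes 18.8% passed, 10.6% as lower and 8.21% as higher, so the share among the members (25%) was near the background. The test was limma on log2(FPKM + 1) with Benjamini-Hochberg adjustment over all tested genes, at an adjusted p of 0.05. The order of mean levels began in both genotypes with Vegfa and Bnip3, followed by Epas1, and ended with Ankrd37, Higd1a and Egln3. Vegfa lay above 97.8% of tested genes in ob/+ and 96.8% in ob/ob, and Bnip3 above 90.4% and 89.0%. Hif1a, Epas1, Arnt and Egln1 stood close together, between 10.8 and 18.4 FPKM in mean. Within that set Hif1a ranked above Arnt and Egln1 in ob/+ and below Arnt in ob/ob, and the spans of Hif1a, Arnt and Epas1 over libraries overlapped in ob/+.

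**Figure D1:**
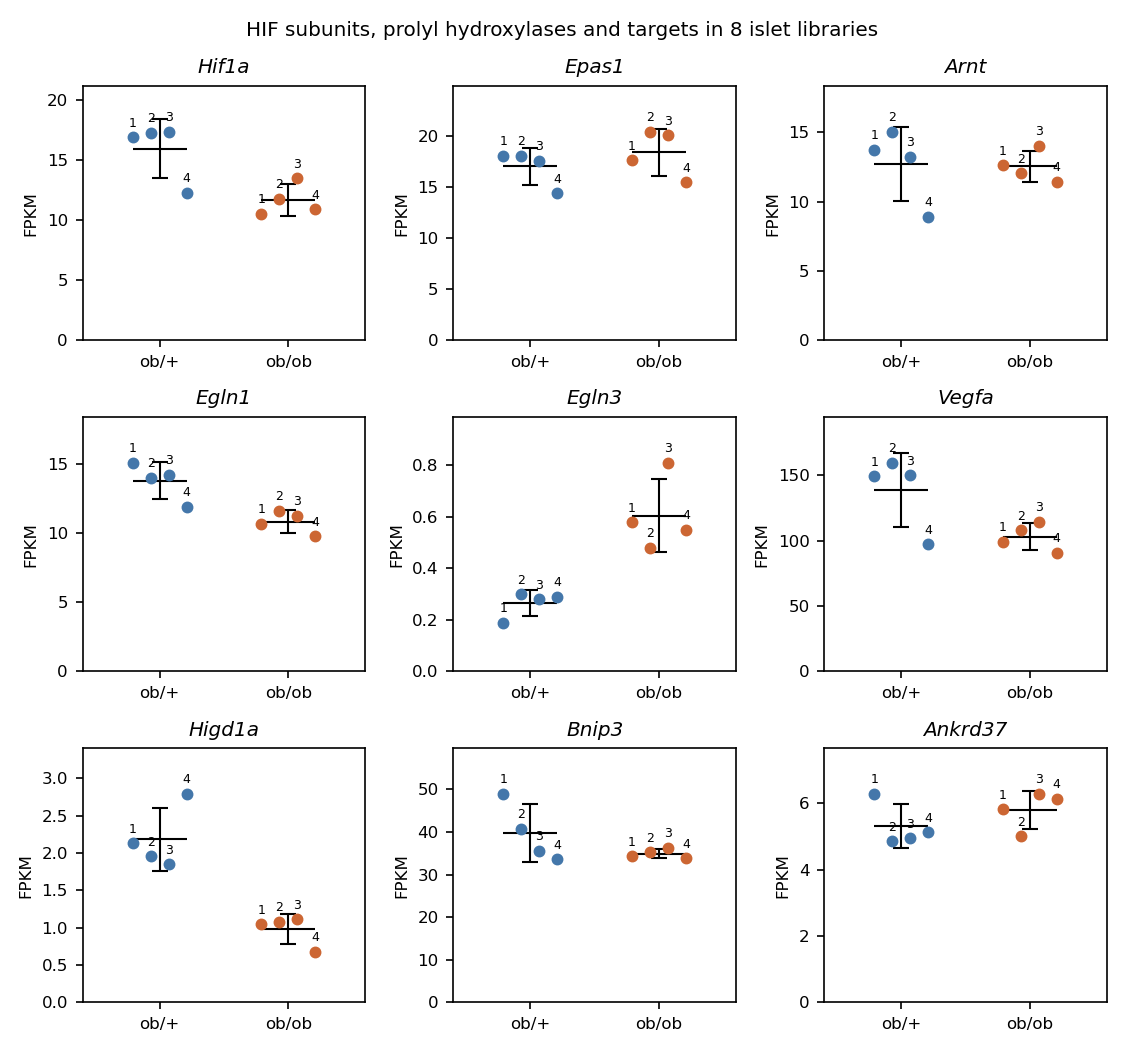
Level of each of the 9 genes in FPKM (vertical axis, from 0) in ob/+ (blue) and ob/ob (orange) libraries, numbered by replicate, with the mean and SD (n = 4). Egln1, Egln3 and Higd1a did not overlap between the genotypes. The same held for 20.5% of all tested genes, a set without Egln3. The library ob/+ 4 was the lowest ob/+ library for Hif1a, Epas1, Arnt, Egln1, Vegfa and Bnip3.

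Hif1a, the oxygen-regulated subunit of HIF-1 (ENSMUSG00000021109.13, GRCm38 chromosome 12, 73901375 to 73947530, plus strand), was at 16.9, 17.3, 17.4 and 12.3 FPKM in ob/+ libraries 1 to 4 and at 10.6, 11.8, 13.5 and 10.9 FPKM in ob/ob libraries 1 to 4. Only ob/+ 4 came down to the ob/ob range, where it lay below ob/ob 3. The mean fell from 16.0 ± 2.46 to 11.7 ± 1.32 FPKM (SD, n = 4 each), a log2 fold change of -0.41 ± 0.12 (SE, adjusted p = 0.0212). Without ob/+ 4 the fall was 0.52 on the log2 scale (-0.52, adjusted p = 0.000204), in a fit in which 32.1% of all tested genes passed as lower. The call ended on leaving out ob/+ 1, ob/+ 2, ob/+ 3, ob/ob 1 or ob/ob 4 (adjusted p = 0.0607 to 0.0876) and after rescaling without the 10 most abundant genes (-0.30, adjusted p = 0.180).

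Epas1, the alpha subunit of HIF-2 that is strong in endothelial cells (ENSMUSG00000024140.10, chromosome 17, 86753700 to 86833410, plus strand), did not follow Hif1a. It was at 18.1, 18.1, 17.6 and 14.4 FPKM in ob/+ and at 17.6, 20.4, 20.1 and 15.5 in ob/ob, and the groups overlapped. The log2 fold change was 0.10 ± 0.12 (SE, 95% interval -0.14 to 0.34, adjusted p = 0.588), and its sign turned after rescaling without acinar genes (-0.19). Arnt, the common partner (ENSMUSG00000015522.18, chromosome 3, 95434388 to 95497240, plus strand), was at 13.7, 15.0, 13.2 and 8.91 FPKM in ob/+ and at 12.6, 12.1, 14.0 and 11.4 in ob/ob. The groups overlapped, with an interval of -0.28 to 0.27 for the log2 fold change over all libraries (adjusted p = 0.996). Apart from ob/+ 4, which was the lowest, the ob/+ libraries were reached only by ob/ob 3. Without ob/+ 4 the log2 fold change was -0.15 (adjusted p = 0.173). The sign of the Arnt difference changed between scalings.

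The balance of the 2 alpha subunits is a ratio within each library, which no library scaling can alter. Epas1 was 1.07, 1.05, 1.01 and 1.17 times as high as Hif1a in ob/+ and 1.67, 1.73, 1.48 and 1.41 times as high in ob/ob. The ratio was therefore near equality in each ob/+ library, ob/+ 4 included, and higher in all 4 ob/ob libraries, without overlap. Its log2 difference of 0.55 gave an exact two-sided permutation p of 0.0286, the smallest that 4 against 4 libraries allow, and leaving out any 1 library gave 0.50 to 0.60. The members were chosen with earlier results of these data known, which limits what this p can show. The ratio of Hif1a to Arnt, chosen after its values were seen and so not tested, was 1.15 to 1.38 in ob/+ and 0.837 to 0.980 in ob/ob. Endothelial cells are a known site of Epas1, and the summed level of 18 endothelial markers overlapped between the groups, from 256.0 to 292.6 FPKM in ob/+ and 240.2 to 337.2 FPKM in ob/ob. None of the 16 tested endothelial markers passed. The part of cell makeup in the ratio was not tested.

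**Figure D2:**
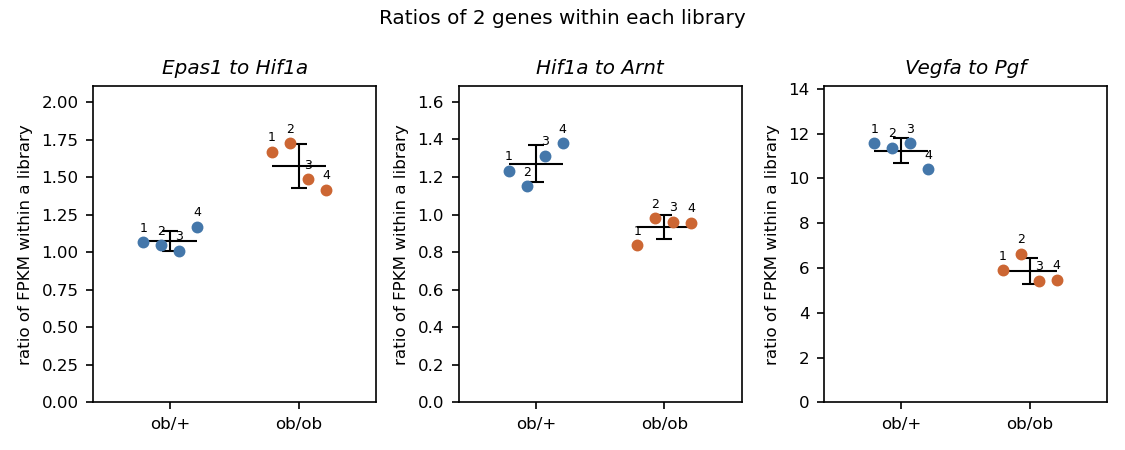
Ratios of FPKM between 2 genes in the same library (vertical axes, from 0) for ob/+ (blue) and ob/ob (orange), numbered by replicate, with the mean and SD (n = 4). Epas1 to Hif1a was 1.01 to 1.17 in ob/+ and 1.41 to 1.73 in ob/ob, Hif1a to Arnt 1.15 to 1.38 and 0.837 to 0.980, and Vegfa to Pgf 10.4 to 11.6 and 5.44 to 6.65.

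The other subunits were low. Arnt2, a relative of Arnt, was at 3.14 ± 0.656 FPKM in ob/+ and 2.70 ± 0.421 in ob/ob (SD, n = 4 each, adjusted p = 0.451). Hif3a, a further alpha subunit, stayed between 0.11 and 0.36 FPKM and was not tested. In the list of 5 subunits, therefore, 1 of 4 tested genes fell and none rose (25%, against 18.8% of all tested genes).

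Egln1 encodes PHD2, the main oxygen sensor of the pathway (ENSMUSG00000031987.6, chromosome 8, 124908587 to 124949324, minus strand). Its level was 15.1, 14.0, 14.2 and 11.9 FPKM in ob/+ and 10.7, 11.6, 11.3 and 9.77 in ob/ob. All 4 ob/ob libraries were below all 4 ob/+ libraries, a pattern seen for 10.7% of tested genes in this direction. The log2 fold change of -0.32 ± 0.11 (SE, 95% interval -0.56 to -0.08) missed the threshold (adjusted p = 0.0515). It passed without ob/+ 4 (-0.38, adjusted p = 0.00169), where 32.1% of all tested genes passed as lower, but not without any 1 of the other 7 libraries. It also passed after median centring (-0.25, adjusted p = 0.0139) and after scaling to the upper quartile (-0.27, adjusted p = 0.00696). After rescaling without the 10 most abundant genes it moved away from the threshold, to -0.21 (adjusted p = 0.427).

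Egln3 encodes PHD3, a hydroxylase that hypoxia induces strongly in many cells (ENSMUSG00000035105.5, chromosome 12, 54178981 to 54203860, minus strand). It was the lowest of the members, at 0.19, 0.30, 0.28 and 0.29 FPKM in ob/+ and 0.58, 0.48, 0.81 and 0.55 in ob/ob. Every ob/ob library was above every ob/+ library, the reverse of Egln1. That pattern held for 9.75% of tested genes, a set that leaves out Egln3 and other genes below the filter. No library reached 1 FPKM, so the gene was outside the main test. With no filter on low values its log2 fold change was 0.34 ± 0.07 (SE, adjusted p = 0.00747), a scale on which changes of such low values are compressed, since the ratio of mean FPKM was 2.28. At these levels Egln1 was still 13.9 to 24.2 times as high as Egln3 in ob/ob and 41.0 to 79.3 times in ob/+.

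Among 18 listed genes of oxygen sensing and HIF turnover 17 were tested, of which 2 rose and 1 fell. This share of 17.6% was near the 18.8% of all tested genes. The median log2 fold change was -0.01 against -0.07 over all tested genes. Os9, a lectin of the endoplasmic reticulum also known to bind HIF-1 alpha, rose from 75.6 ± 7.89 to 121.1 ± 8.88 FPKM (mean ± SD of 4 libraries each, log2 fold change 0.68 ± 0.10 SE, adjusted p = 1.13e-05). Rack1, a ribosomal scaffold known to promote HIF-1 alpha breakdown independently of oxygen, was at 194.9 ± 7.01 and 249.3 ± 18.4 FPKM (adjusted p = 0.00370), and its call ended after rescaling without acinar genes (adjusted p = 0.674). Cul2, the scaffold of the VHL ubiquitin ligase, fell from 6.48 ± 0.879 to 4.86 ± 0.316 FPKM (mean ± SD of 4 libraries each, adjusted p = 0.0477), a call that held on leaving out ob/+ 4 and was lost on leaving out any other library (adjusted p = 0.0804 to 0.169) and after rescaling without the 10 most abundant genes (0.327). Vhl itself, Egln2 and the asparagine hydroxylase Hif1an did not pass. Of 14 tested coactivators and modulators 2 fell and none rose (median log2 fold change -0.20), 14.3% against 18.8% of all tested genes. They were the repressor Bhlhe41 (8.57 ± 1.78 to 3.93 ± 0.473 FPKM, -0.94 ± 0.14 SE, adjusted p = 1.54e-05) and the heat shock protein Hspa4 (23.2 ± 3.41 to 17.3 ± 0.879 FPKM, adjusted p = 0.0170), whose call was lost without ob/+ 1, ob/+ 2, ob/+ 3 or ob/ob 1 (adjusted p = 0.0529 to 0.0759) and after rescaling without the 10 most abundant genes (0.203). The coactivator Ncoa1 (adjusted p = 0.0581) and the pyruvate kinase Pkm (adjusted p = 0.122) came next and did not pass.

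Vegfa was the most abundant member (ENSMUSG00000023951.17, chromosome 17, 46016993 to 46032369, minus strand). It was at 149.5, 159.5, 150.2 and 97.1 FPKM in ob/+ and at 99.1, 108.0, 114.4 and 90.6 in ob/ob. The first 3 ob/+ libraries lay above all ob/ob libraries, and ob/+ 4 lay inside the ob/ob range. The log2 fold change of -0.41 ± 0.14 (SE, 95% interval -0.71 to -0.11) did not pass (adjusted p = 0.0586). Without ob/+ 4 it was -0.57 (adjusted p = 7.13e-05) in a fit in which 41.6% of tested genes passed, 32.1% as lower. Without both ob/+ 4 and ob/ob 1, which had the highest acinar share of their genotype, it was -0.55 (adjusted p = 0.000329). With the acinar share as a covariate it was -0.66 (adjusted p = 0.00126), and after rescaling without the 10 most abundant genes -0.29 (adjusted p = 0.141).

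The other angiogenic ligands moved in both directions. Of 9 tested ligands on a list of 14, 3 rose and 1 fell (44.4%, against 18.8% of all tested genes). Vegfb, a VEGF of the receptor FLT1, fell from 34.3, 33.3, 30.9 and 29.4 FPKM in ob/+ to 19.9, 21.9, 18.3 and 14.2 in ob/ob (-0.77 ± 0.12 SE, adjusted p = 3.30e-05), and it did so under all 20 alternatives tried. Pgf, placental growth factor and another ligand of FLT1, rose from 12.9, 14.0, 13.0 and 9.33 FPKM to 16.8, 16.2, 21.0 and 16.6 (0.49 ± 0.13 SE, adjusted p = 0.00667), with the call lost after rescaling without acinar genes and with the acinar share as a covariate. In both genes all ob/ob libraries were on one side of all ob/+ libraries. Fibroblast growth factor 1 (Fgf1) showed the largest change of the list, from 4.67 ± 0.667 to 13.4 ± 1.69 FPKM (mean ± SD of 4 libraries each, 1.34 ± 0.13 SE, adjusted p = 1.73e-08). Angpt2, the angiopoietin of vessel remodelling, rose from 2.10 ± 0.393 to 3.16 ± 0.634 FPKM (adjusted p = 0.0277), and the call was lost on leaving out ob/+ 1, ob/+ 2, ob/ob 3 or ob/ob 4 (adjusted p = 0.0536 to 0.105) and after rescaling without acinar genes (0.179). The ratio of Vegfa to Pgf, chosen after its values were seen and not tested, was 11.6, 11.4, 11.6 and 10.4 in ob/+ and 5.90, 6.65, 5.44 and 5.47 in ob/ob. It set ob/+ 4 with the other ob/+ libraries, unlike the level of Vegfa alone.

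None of the 10 tested receptors of VEGF, angiopoietin, apelin and adrenomedullin passed in either direction. The closest was the co-receptor Nrp1, at 14.3 ± 2.17 FPKM in ob/+ and 10.9 ± 1.44 in ob/ob (SD, n = 4 each, adjusted p = 0.0506). The main VEGF receptor Kdr was at 21.1 ± 4.03 and 17.6 ± 3.13 FPKM (adjusted p = 0.267), the lymphatic receptor Flt4 at 2.84 ± 0.651 and 2.23 ± 0.288 (adjusted p = 0.242) and Nrp2 at 1.33 ± 0.181 and 0.988 ± 0.340 (adjusted p = 0.226). Without ob/+ 4 Nrp1 (-0.44, adjusted p = 0.00213), Kdr (-0.38, adjusted p = 0.0118) and Flt4 (-0.35, adjusted p = 0.0170) passed as lower, 3 of 10 receptors where 32.1% of all tested genes were lower. Nrp1 also passed with median centring (adjusted p = 0.0192), upper-quartile scaling (0.0154), a replicate block (0.0191), the acinar share as a covariate (0.0118) and without ob/ob 3 (0.0340). Kdr passed with that covariate too (adjusted p = 0.0186). Nrp1, Kdr, Flt4 and Nrp2 passed after rescaling without acinar genes, where 64.5% of all tested genes passed and 60.5% were lower. Among ob/ob libraries only ob/ob 3 (1.46 FPKM) reached 1 FPKM for Nrp2, so this gene met the filter through the ob/+ libraries. Kdr and Flt1 are also on the list of endothelial markers given above.

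Promoter windows of 4 members known as HIF targets and that of Vegfa are shown because they carry, or lack, the core letters of the HIF site. They run from 250 bases before to 50 bases after the RefSeq start (build GRCm38.p6), 5′ to 3′ along the gene, with every ACGTG and GCGTG on either strand in capitals (CACGT and CACGC on the printed strand). Windows were found for 8 of the 9 members, 9 windows in all.
Egln1, chr8:124949205-124949504, minus strand: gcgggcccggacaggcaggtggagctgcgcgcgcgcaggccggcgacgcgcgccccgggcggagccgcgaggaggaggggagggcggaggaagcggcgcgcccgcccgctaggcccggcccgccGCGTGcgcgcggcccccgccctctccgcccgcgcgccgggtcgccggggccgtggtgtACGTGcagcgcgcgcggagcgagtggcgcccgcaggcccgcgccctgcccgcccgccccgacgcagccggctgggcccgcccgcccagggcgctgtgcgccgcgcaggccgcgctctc
Higd1a, chr9:121857747-121858046, minus strand: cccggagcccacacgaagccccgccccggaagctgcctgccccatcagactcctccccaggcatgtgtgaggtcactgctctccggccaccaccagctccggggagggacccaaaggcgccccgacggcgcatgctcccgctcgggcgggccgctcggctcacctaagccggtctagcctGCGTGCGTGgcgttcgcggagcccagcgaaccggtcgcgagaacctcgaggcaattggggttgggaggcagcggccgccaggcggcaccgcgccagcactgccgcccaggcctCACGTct
Bnip3, chr7:138909457-138909756, minus strand: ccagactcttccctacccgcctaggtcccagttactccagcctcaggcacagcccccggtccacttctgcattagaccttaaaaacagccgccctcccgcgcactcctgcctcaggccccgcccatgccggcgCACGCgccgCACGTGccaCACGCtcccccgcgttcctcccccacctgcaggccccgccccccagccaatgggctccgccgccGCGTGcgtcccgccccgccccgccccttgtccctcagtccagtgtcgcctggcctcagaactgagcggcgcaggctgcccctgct
Ankrd37, chr8:45999801-46000100, minus strand: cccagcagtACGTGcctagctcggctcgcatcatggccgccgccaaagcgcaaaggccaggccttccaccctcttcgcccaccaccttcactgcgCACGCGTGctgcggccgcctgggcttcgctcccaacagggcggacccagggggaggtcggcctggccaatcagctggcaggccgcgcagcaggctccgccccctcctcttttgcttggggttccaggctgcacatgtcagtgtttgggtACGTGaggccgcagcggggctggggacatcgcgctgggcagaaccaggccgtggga
Vegfa, chr17:46032328-46032627, minus strand: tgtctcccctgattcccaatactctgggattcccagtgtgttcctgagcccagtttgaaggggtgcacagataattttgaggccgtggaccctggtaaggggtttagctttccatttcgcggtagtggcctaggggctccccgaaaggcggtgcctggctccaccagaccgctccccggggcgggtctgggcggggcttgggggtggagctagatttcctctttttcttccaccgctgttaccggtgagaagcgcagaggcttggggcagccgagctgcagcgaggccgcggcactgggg
The windows of Egln1, Higd1a, Bnip3 and Ankrd37 each hold both letter groups, and the printed Vegfa window holds neither. The window of another RefSeq start of Vegfa, at 46025114 to 46025413 inside the gene, holds both and is counted among the 9. Letters outside these windows were not searched, so a gene may have sites elsewhere. Of the 9 windows, 8 hold at least 1 of the 2 groups, where 43.8% of all 32851 promoter windows of this length do. ACGTG alone was in 7 of 9 windows against 19.6% of all, and GCGTG in 6 of 9 against 32.4%. Both letter groups hold CG, and the 9 windows, with 54.7% to 86% G and C, were not matched to the others for base content. In Bnip3 the ACGTG is part of CACGTG, the E-box letters that other factors also bind, which reads as ACGTG on both strands and is in 7.15% of all windows. The 9 windows include those of the subunits Hif1a and Arnt, and the members were chosen for their place in the HIF pathway, so this count describes them and is no test. Windows with these letters belonged to genes that fell (Hif1a and Higd1a) and to genes that missed the threshold (Egln1, and Vegfa at its other start). They also belonged to genes whose interval spans no change (Arnt, Bnip3 and Ankrd37). Egln3, outside the main test and higher in every ob/ob library, has ACGTG in its window too.

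Higd1a, an inner mitochondrial membrane protein that supports the respiratory chain in hypoxia (ENSMUSG00000038412.8, chromosome 9, 121848563 to 121858362, minus strand), fell most among the members. It was at 2.13, 1.96, 1.85 and 2.79 FPKM in ob/+ and at 1.05, 1.08, 1.11 and 0.68 in ob/ob, with no overlap. Here ob/+ 4 was the highest library rather than the lowest. The log2 fold change was -0.68 ± 0.13 (SE, adjusted p = 0.000394), and the ratio of means put ob/+ 2.23-fold above ob/ob. The call held under all 19 alternatives that could be computed (adjusted p = 3.26e-05 to 0.0106). The level was low, above that of 13.0% of tested genes in ob/+ and 2.15% in ob/ob, and 36.6% of the 50-base stretches of its longest coding transcript also occur in transcripts of other genes, among them the antisense gene Gm47112. Its value is therefore uncertain where the counting split such reads.

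Bnip3, a mitophagy receptor of the outer mitochondrial membrane (ENSMUSG00000078566.8, chromosome 7, 138890836 to 138909519, minus strand), was at 49.0, 40.8, 35.6 and 33.6 FPKM in ob/+ and at 34.3, 35.3, 36.4 and 33.9 in ob/ob. The ob/ob libraries were close together, while ob/+ ran from their level up to that of ob/+ 1. The log2 fold change was -0.17 ± 0.11 (SE, 95% interval -0.39 to 0.06, adjusted p = 0.316). It passed as lower without ob/+ 4 (-0.24, adjusted p = 0.0446), as did 32.1% of all tested genes. Other genes' transcripts share 62.5% of its 50-base stretches, so its value too is uncertain. Ankrd37, an ankyrin repeat protein known mainly as a sensitive HIF-1 target (ENSMUSG00000050914.16, chromosome 8, 45996902 to 46005707, minus strand), was at 6.28, 4.85, 4.94 and 5.13 FPKM in ob/+ and at 5.81, 5.0, 6.28 and 6.14 in ob/ob. These spans overlapped almost wholly, with a log2 fold change of 0.11 ± 0.12 (SE, 95% interval -0.14 to 0.36, adjusted p = 0.563) that turned to -0.14 after rescaling without acinar genes. Exons of Lrp2bp and Ufsp2 on the opposite strand cover 22.7% and 3.70% of its exon bases, and without stated strand use their reads cannot be told apart from its own.

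Of 9 tested mitochondrial HIF targets 2 fell and none rose (22.2%, against 18.8% of all tested genes), with a median log2 fold change of -0.00. Beside Higd1a this was the matrix protease Lonp1 (13.9 ± 1.82 to 10.5 ± 0.591 FPKM, SD, n = 4 each, adjusted p = 0.0279), whose call was lost on leaving out any of ob/+ 1, ob/+ 2, ob/+ 3, ob/ob 1 and ob/ob 4 (adjusted p = 0.0862 to 0.102) and after rescaling without the 10 most abundant genes (0.279). Ndufa4l2, a HIF-1 target that restrains complex I, was at 4.77 ± 0.477 and 6.35 ± 1.39 FPKM (adjusted p = 0.0840). The pyruvate dehydrogenase kinase Pdk1 was at 5.35 ± 0.665 and 6.71 ± 0.556 FPKM (adjusted p = 0.106), without overlap.

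The HIF targets of glucose use were the list with most falls: 10 of 21 tested genes fell and 1 rose, against 10.6% lower and 8.21% higher over all tested genes, with a median log2 fold change of -0.29. Many cell type markers fell too: 6 of 8 tested markers of alpha cells and 5 of 6 of delta and PP cells. The rest of these were called higher: Gc (74.1 ± 17.5 to 349.3 ± 32.1 FPKM), Ttr and Etv1. Of neuron and Schwann cell markers 6 of 7 were lower, with Uchl1 at 32.9 ± 4.63 FPKM in ob/+ and 10.9 ± 0.949 in ob/ob, and Prph at 7.21 ± 1.15 and 0.688 ± 0.418 (SD, n = 4 each). The ob/ob mean of Prph was below the 1 FPKM of the filter. Of 10 beta cell markers 4 were lower and 2 higher, and of 7 tested duct markers 3 were higher and none lower. Of 13 pericyte and stellate cell markers the collagens Col1a1, Col1a2 and Col3a1 were lower and Rgs5 and Acta2 higher. The summed level of the neuron and Schwann cell list was 84.4 to 113.4 FPKM in ob/+ and 41.3 to 52.0 FPKM in ob/ob, and none of its genes was at 0 in any library. The part of these cell types in the glucose use genes was not tested. Of the genes that fell, the aldolase Aldoc went from 3.76 ± 0.947 to 1.48 ± 0.159 FPKM (mean ± SD of 4 libraries each, -0.92 ± 0.14 SE, adjusted p = 2.10e-05). The glucose transporter GLUT1 (Slc2a1) was at 4.15, 4.13, 4.59 and 4.07 FPKM in ob/+ and at 2.03, 2.68, 3.18 and 2.39 in ob/ob (-0.56 ± 0.12 SE, adjusted p = 0.00202). Triosephosphate isomerase (Tpi1, -0.34 ± 0.10 SE), phosphoglycerate mutase (Pgam1, -0.36 ± 0.10) and the enolases Eno1 (-0.29 ± 0.09) and Eno2 (-0.39 ± 0.12) fell by less. Aldoa, Hk1, Pfkl and Pfkp were the remaining 4. The calls of Tpi1, Pgam1, Eno1 and Eno2 were lost after rescaling without the 10 most abundant genes (adjusted p = 0.308, 0.219, 0.440 and 0.231), and that of Tpi1 also without ob/ob 1. Eno1 and Eno2 were no longer called on leaving out any of ob/+ 1, ob/+ 2, ob/+ 3, ob/ob 1 and ob/ob 4, and that of Eno1 also without ob/ob 2 (adjusted p = 0.0567 to 0.120 for Eno1, 0.0674 to 0.0948 for Eno2). Glycogen synthase (Gys1) rose from 3.42 ± 0.456 to 4.66 ± 0.596 FPKM (adjusted p = 0.0492), a call that held in 7 of 19 alternatives.

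**Figure D3:**
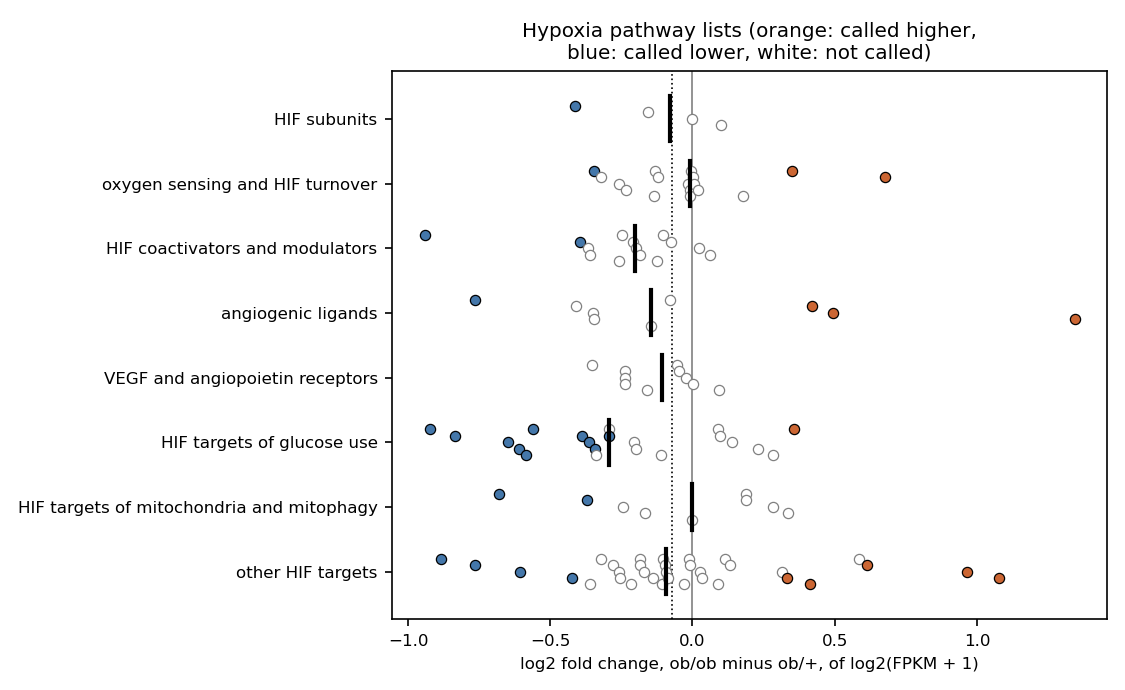
Log2 fold change (ob/ob minus ob/+, horizontal axis, of log2(FPKM + 1)) of every tested gene of 8 pathway lists, with calls higher in orange, calls lower in blue and others in white, list medians as black bars and the all-gene median (-0.07) as a dotted line. Of the glucose use genes 10 were called lower and 1 higher, and no receptor was called.

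The remaining HIF targets were divided, with 5 higher and 4 lower among 34 tested of 45 listed, and a median of -0.09. These calls were 26.5% of the genes tested on the list, against 18.8% of all tested genes. Those that fell were the transferrin receptor Tfrc (9.17 ± 0.582 to 4.52 ± 0.545 FPKM, -0.88 ± 0.12 SE, adjusted p = 4.56e-06), the corepressor Rcor2 (2.32 ± 0.302 to 0.963 ± 0.249, adjusted p = 8.52e-05), the zinc finger factor Zfp395 (10.7 ± 1.68 to 6.65 ± 0.582, adjusted p = 0.000897) and heme oxygenase 1 (Hmox1, 5.11 ± 0.376 to 3.57 ± 0.477, adjusted p = 0.0156). Among ob/ob libraries only ob/ob 3 (1.33 FPKM) reached 1 FPKM for Rcor2, so this gene met the filter through the ob/+ libraries. The largest rises were those of Ddit4, an inhibitor of mTOR signalling, at 9.29 ± 2.41 and 20.7 ± 5.16 FPKM (adjusted p = 0.00208), and of the transcription factor Nfil3, at 6.13 ± 2.06 and 12.5 ± 1.57 FPKM (adjusted p = 0.00591). Tgfb3, a growth factor, rose from 1.14 ± 0.235 to 2.28 ± 0.462 FPKM, and the growth factor carrier Igfbp3 from 49.8 ± 6.77 to 63.1 ± 9.04 (SD, n = 4 each). The matrix enzyme Loxl2 rose from 7.76 to 11.4 FPKM over the ob/+ libraries to 12.4 to 14.2 over the ob/ob libraries. On leaving out 1 library at a time the call of Igfbp3 was lost 4 times of 8 (without ob/+ 3, ob/+ 4, ob/ob 1 or ob/ob 2), that of Loxl2 without ob/ob 2 or ob/ob 3, and that of Hmox1 without ob/+ 2 or ob/ob 1. After rescaling without acinar genes Igfbp3 was at 0.03 (adjusted p = 0.758) and Loxl2 at 0.13 (adjusted p = 0.249), and neither passed with the acinar share as a covariate. Igfbp3 was called in 11 of 20 alternatives. The call of Nfil3 was lost with that covariate (adjusted p = 0.0691) and without both ob/+ 4 and ob/ob 1 (adjusted p = 0.0644). Hmox1 was not called after rescaling without the 10 most abundant genes (adjusted p = 0.139). The classical hypoxia markers Car9 (0.06 to 0.21 FPKM) and Adm (0.16 to 0.50 FPKM) were too low for testing in both genotypes. Over the 8 lists, counting each gene once and leaving out the members, 11 of 106 tested genes rose and 19 fell, 28.3% against the 18.8% of all tested genes. Without ob/+ 4 these counts were 11 and 41, where 41.6% of all tested genes passed and 32.1% were lower. After rescaling without the 10 most abundant genes 13 rose and 11 fell, where 16.2% of all tested genes passed. The balance of rises and falls over the lists therefore depended on the scaling.

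Over all tested genes the median log2 fold change stood at -0.07 as deposited, at 0.03 after rescaling without the 10 most abundant genes and at -0.33 after rescaling without acinar genes. The share of calls that were higher was 43.7%, 67.3% and 6.25% in these 3 fits. Rescaling a library moves all its genes nearly alike, so a member's distance from that median is almost fixed by construction and is given as a description. On this measure Hif1a lay at -0.36 to -0.33 in the 5 scalings, Vegfa at -0.38 to -0.32, Egln1 at -0.27 to -0.24 and Higd1a at -0.64 to -0.53. Epas1 lay at 0.14 to 0.19 and Ankrd37 at 0.19 in each of them, Arnt at 0.05 to 0.08 and Bnip3 at -0.13 to -0.08. After rescaling without acinar genes 6 of 8 members passed, all lower (Hif1a, Arnt, Egln1, Vegfa, Higd1a and Bnip3), in a fit in which 64.5% of all tested genes passed and 60.5% were lower. That scaling divides by the summed FPKM of all other genes, most of which was insulin. Ins1 and Ins2 took 42.0% to 54.3% of summed FPKM in ob/+ and 57.1% to 65.6% in ob/ob. The scaling thus follows the insulin level as well as the acinar share, and the part of each was not tested.

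**Figure D4:**
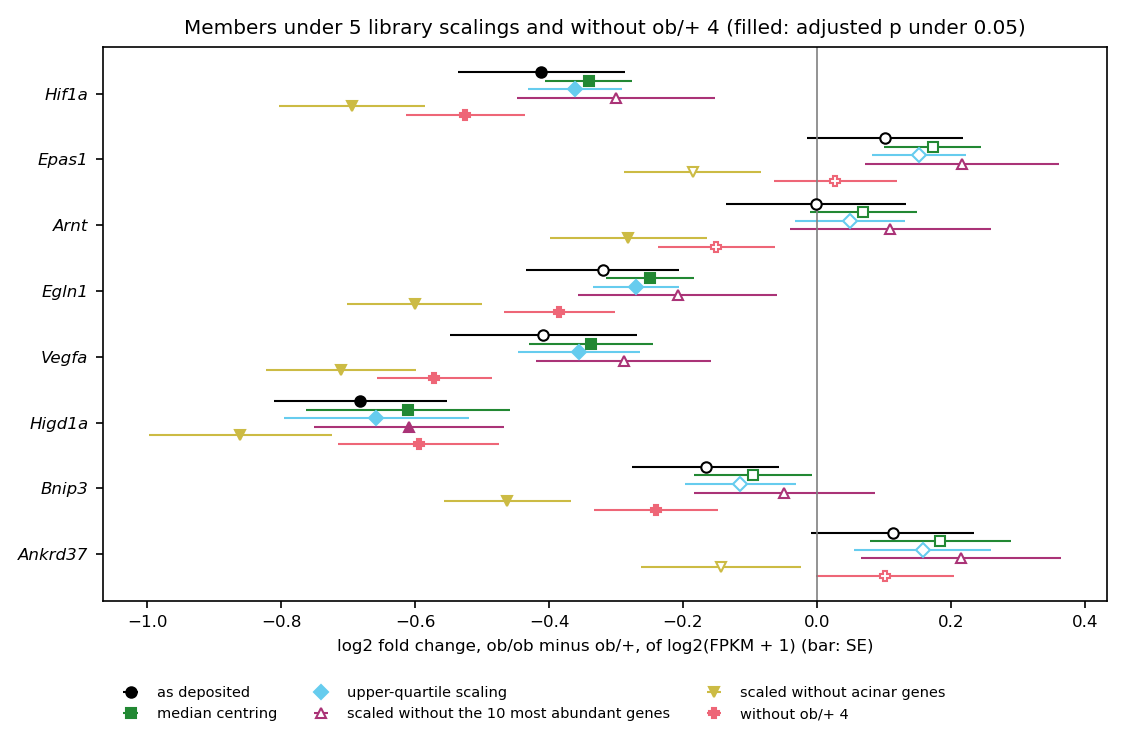
Log2 fold change (ob/ob minus ob/+, horizontal axis, of log2(FPKM + 1), with SE bars) of the 8 tested members under 5 library scalings and without ob/+ 4, with filled symbols for an adjusted p under 0.05. Hif1a, Egln1, Vegfa, Higd1a and Bnip3 lay below 0 in all 6 fits, while the signs of Epas1, Arnt and Ankrd37 changed between them.

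The genes whose profile over the 8 libraries lay nearest to that of the 2 members that passed were found by the distance between centred log2(FPKM + 1) values. For Hif1a they were the adhesion protein gene Amigo1 (root mean square distance 0.0410), Rundc3b (0.0414) and the gelsolin relative Flii (0.0427). Their log2 fold changes were -0.41, -0.41 and -0.36. For Higd1a they were Hmgb3 (0.0965), a chromatin protein, the arginase Arg1 (0.0975) and the mitochondrial protein gene Chchd10 (0.113), with log2 fold changes of -0.59, -0.76 and -0.59. These genes were chosen for a profile like that of a gene lower in ob/ob, which fixes their direction and the low ob/+ 4 values of the first 3, so the values are a description only.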

How the data were processed

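RNA of hand-picked islets was sequenced in 8 libraries, and each deposited file lists 20715 genes with 1 value. The unit is not named in the labels or the file headers. The authors' deposited values were read as FPKM because they have 2 decimals and library sums that differ (820968 to 1004230). Per the submitters' processing notes, which give no roles, the tools were Trimmomatic 0.36 and DESeq2 1.20.0, with mm10 and GRCm38 as builds. For the aligner, quantifier and strand setting: not given in the sources used here.

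Groups came from the labelled titles. The 11747 genes that reached 1 FPKM in 4 or more libraries were tested together on log2(FPKM + 1) with limma 3.58.1 (eBayes with trend and robust, statmod 1.5.0, R 4.3.3), two-sided, with Benjamini-Hochberg adjustment. Fold changes are on that scale and understate changes of low genes. The script was tested on simulated data. Ratios and shares used exact permutation over 70 assignments. The 20 alternatives were 4 other scalings, 2 pseudocounts, 2 filters, a fit that is not robust, a replicate block, the acinar share as covariate, leaving out each library, and leaving out ob/+ 4 with ob/ob 1. Named were the 9 members, each gene of 8 pathway lists that passed or had 1 of the 4 smallest p-values in its list, and the 3 nearest profiles of each member that passed. Other genes were named after their values were seen. Members and lists were chosen with earlier results of these data known. Positions are from GENCODE M21 (GRCm38) and promoters from RefSeq (GRCm38.p6).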

Additional observations from a re-analysis of the deposited data

Results flagged for a closer look

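With 4 libraries a group, a library was taken as standing apart when its gap to the nearest other took more of the group's range than Dixon's critical value allows, which chance gives in about 1 of 20 groups. Of 132 groups screened 13 were flagged, 8 of them for ob/+ 4, so a single flag may be chance. The library ob/+ 4 was low for Hif1a (12.3 FPKM, others 16.9 to 17.4), Epas1 (14.4, others 17.6 to 18.1), Vegfa (97.1, others 149.5 to 159.5), Hspa4 (18.1, others 24.6 to 25.1) and the summed endothelial markers (256.0 FPKM, others 287.3 to 292.6). Amigo1 (9.43 FPKM), Flii (15.5) and Rundc3b (4.32) were low in it too, as genes chosen for a profile like that of Hif1a. The same library had the highest acinar share, and the part of that share in these values was not tested. In ob/ob 4, Higd1a (0.68 FPKM) and Gys1 (3.77) were low. In ob/ob 3, Ncoa1 (9.68) and Pgf (21.0) were high, and in ob/+ 3 Slc2a1 (4.59) was high.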

How the results depend on the processing

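Under 20 alternatives the number of genes passing was 2208 as reported, 3429 with median centring, 3480 with upper-quartile scaling, 7595 after rescaling without acinar genes, 4000 without ob/+ 4 and ob/ob 1 (added after the data were seen) and 1434 to 4832 on leaving out 1 library, the extremes being ob/+ 1 and ob/+ 4. The number of members passing was 2, where 18.8% of all tested genes passed. It was 4 with median centring (29.2% of all), upper-quartile scaling (29.7%), the acinar covariate (24.7%) or without ob/+ 4 and ob/ob 1 (34.7%). It was 3 without the robust option (18.1%) and 3 with no filter (14.6%), where Egln3 passed as higher. It was 1 after rescaling without the 10 most abundant genes (16.2%), 6 without acinar genes (64.5%) and 1 to 5 on leaving out 1 library (12.4% to 41.6%). The 30 pathway genes outside the members became 74 without acinar genes and 21 to 52 on leaving out 1 library. Hif1a was -0.30 without the 10 most abundant genes and -0.52 to -0.37 on leaving out 1 library. Egln1 was -0.21 without the 10 most abundant genes and passed at -0.25 with median centring, -0.27 with upper-quartile scaling, -0.60 without acinar genes, -0.32 with a 5 FPKM filter or without the robust option, -0.43 with the acinar covariate and -0.38 without ob/+ 4 and ob/ob 1, and was -0.38 to -0.28 on leaving out 1 library. Vegfa passed at -0.34, -0.36, -0.71, -0.66 and -0.55 with median centring, upper-quartile scaling, rescaling without acinar genes, the acinar covariate, and without ob/+ 4 and ob/ob 1, and was -0.57 to -0.33 on leaving out 1 library. Without acinar genes in the scaling Arnt (-0.28) and Bnip3 (-0.46) passed, and Ankrd37 (-0.14) and Epas1 (-0.19, also -0.054 with the acinar covariate) changed sign. Bnip3 was -0.24 to -0.063 on leaving out 1 library. Arnt, near 0 as reported, changed sign at 0.070 with median centring, 0.050 with upper-quartile scaling, 0.11 without the 10 most abundant genes, 0.00032 with a pseudocount of 0.1 and 0.040, 0.081, 0.024, 0.015 and 0.039 without ob/+ 1, ob/+ 2, ob/+ 3, ob/ob 2 and ob/ob 4 (-0.15 to 0.081 over all 8). The cause of these shifts was not tested. Hif1a, Egln1, Vegfa, Higd1a and Bnip3 kept their sign under each alternative.

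Replicate numbers shared between the genotypes were not said to pair mice, and same-numbered libraries correlated above 0.1 in 3 of 4 pairs and best with their own number in 2 of 4. A replicate block gave 2674 genes (22.8% of those tested) and 4 members, Egln1 (-0.32, adjusted p = 0.0252) and Vegfa (-0.41, adjusted p = 0.00458) beside Hif1a and Higd1a. As paired values the Epas1 to Hif1a log2 difference of 0.55 gave an exact permutation p of 0.125, the smallest that 4 pairs allow. Depth is unknown, which limits Egln3 and Higd1a most.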
